A study of Mus musculus with 6 samples.

Results

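The genes described here encode the contents and the handling of cytotoxic granules: the granzymes Gzma, Gzmb, Gzmc and Gzmk, the pore-forming protein perforin (Prf1), the granule proteins Srgn, Ctsw and Nkg7, and the intracellular granzyme inhibitors Serpinb9 and Serpinb6b. They were taken by symbol from the deposited table of read counts, which held 1 transcript row for each of the 10 genes among 23992 gene symbols. RNA was sequenced from mouse regulatory T cells (Treg cells) in 6 libraries, 3 labelled WT and 3 labelled KO. WT stands for male CD45.2 Foxp3YFP-Cre/Y mice and KO for male CD45.2 mice that also carried the floxed Crlf2 allele (Crlf2fl/fl), so both groups carry the Cre and yellow fluorescent protein at the Foxp3 locus. Crlf2 encodes the chain of the TSLP receptor that binds the cytokine TSLP, and the Cre deletes it only in cells that express, or have expressed, Foxp3. Cells were live CD4+YFP+ cells sorted from lymph nodes and spleen that had been pooled. The labels name no age, and they do not say whether each library came from a separate animal, so the p-values below measure only the spread between these samples.

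Granzymes are serine proteases that killer lymphocytes store in granules together with perforin and the proteoglycan serglycin. On contact with a target cell the granules fuse with the membrane, perforin opens a path into the target and granzymes cleave proteins inside it. Activated Treg cells can also make granzyme B, which has been tied to their suppressive action, and cells that carry granzymes protect themselves with serpins that trap the protease. Natural killer (NK) cells hold large amounts of granzyme A, granzyme B, perforin and Nkg7 transcripts.

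Library totals ranged from 1439738 reads (WT replicate 2) to 18352409 reads (KO replicate 3). Levels below are TMM-scaled CPM, reads of a gene per 1e+06 reads of a library after trimmed-mean scaling of the library totals. The limit that a count of 0 allows, 3 reads, equals 2.05 CPM in the shallow WT replicate 2 (elsewhere 0.157 to 0.401 CPM), and covers counting error only. Crlf2 was at 92.8, 145.7 and 105.1 CPM in WT replicates 1 to 3 and at 9.06, 6.72 and 3.55 CPM in KO replicates 1 to 3, an order that matches titles and genotype but is opposite to the strain line of the descriptions. Foxp3, the master regulator of Treg cells, was lowest in WT replicate 3 (200.1 CPM), with 386 to 489.4 CPM elsewhere. WT replicate 3 stood apart in markers of other cells. All 14 NK cell markers, 8 of 8 macrophage and monocyte markers, 5 of 5 B cell markers and 8 of 8 erythroid markers with reads were highest there. Near-identical globins counted once, the erythroid markers took 7.27% of its reads. The table is named for lung although the labels give spleen and lymph nodes, and markers of lung epithelium took 7.89%, 1.75% and 2.25% of the reads in WT replicates 1 to 3 and 1.67%, 2.03% and 0.25% in KO replicates 1 to 3.

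The upstream regions of 4 genes are shown because their levels moved differently: Gzmb, the gene that fell in KO, Gzmc, which lies 24.2 kb from it in the same granzyme cluster, Nkg7, and Gzma. Each line gives the 250 bases before the RefSeq transcription start (GRCm38.p6), 5′ to 3′ on the gene's strand. Gzmb lies on the minus strand at chr14:56262335-56262584, Gzmc on the minus strand at chr14:56234658-56234907, Nkg7 on the plus strand at chr7:43436888-43437137 and Gzma on the minus strand at chr13:113100982-113101231. Capitals mark matches to short motifs bound by factors that act in T and NK cells.
Gzmb: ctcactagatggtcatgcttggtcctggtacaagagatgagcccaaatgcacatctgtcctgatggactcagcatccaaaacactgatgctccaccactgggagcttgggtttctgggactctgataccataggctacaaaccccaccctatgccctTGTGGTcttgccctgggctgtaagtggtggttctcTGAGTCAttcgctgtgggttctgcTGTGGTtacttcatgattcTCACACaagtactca
Gzmc: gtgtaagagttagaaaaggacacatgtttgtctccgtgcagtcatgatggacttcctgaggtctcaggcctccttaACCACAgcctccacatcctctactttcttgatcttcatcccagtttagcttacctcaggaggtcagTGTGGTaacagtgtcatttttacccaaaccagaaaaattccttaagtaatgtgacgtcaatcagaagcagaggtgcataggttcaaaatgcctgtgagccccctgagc
Nkg7: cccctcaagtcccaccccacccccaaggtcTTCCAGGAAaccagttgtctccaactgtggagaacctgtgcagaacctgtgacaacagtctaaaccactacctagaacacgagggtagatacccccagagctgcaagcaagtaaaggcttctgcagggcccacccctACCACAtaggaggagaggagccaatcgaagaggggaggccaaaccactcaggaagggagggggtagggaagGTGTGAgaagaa
Gzma: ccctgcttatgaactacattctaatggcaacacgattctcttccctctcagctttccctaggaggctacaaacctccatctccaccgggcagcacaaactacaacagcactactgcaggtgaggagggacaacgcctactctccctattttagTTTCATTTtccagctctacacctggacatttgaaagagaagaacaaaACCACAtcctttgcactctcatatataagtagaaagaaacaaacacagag

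The motifs were searched on both strands over the same 250 bases of 32851 RefSeq starts, and no matches overlapped in the 4 windows shown. The RUNX core (TGTGGT) was present in 14% of all windows, with 2 matches for Gzmb, 2 for Gzmc, 1 for Nkg7 and 1 for Gzma. The T-box core, written GTGTGA, was present in 12.3% of windows and had 1 match each in Gzmb and Nkg7. An AP-1 site (TGANTCA; 6.75% of windows) was found for Gzmb, 58 to 52 bases before the start. A STAT site (TTCNNNGAA; 7.02% of windows) was found for Nkg7, and an IRF site (AANNGAAA; 21.3% of windows) for Gzma. These matches describe the letters in the window and were not tested for binding. Of the 10 genes, 9 had an entry among the RefSeq starts (not Ctsw).

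Of the 10 granule genes, Gzmb was the only member whose level changed by the test with all 6 libraries: its KO mean was 0.339 of the WT mean. Serglycin and cathepsin W were abundant and similar in both groups. Gzma, Prf1, Nkg7, Serpinb9 and Serpinb6b were each highest in WT replicate 3, and their fold changes moved when that library was left out. KO was compared with WT by edgeR's quasi-likelihood test on 12719 genes, and a gene was called at a Benjamini-Hochberg adjusted p under 0.05. In all, 1.74% of tested genes were called, 0.983% lower and 0.755% higher in KO. Of the 9 granule genes that passed the low-count filter (all but Gzmc), 1 was called lower and 0 higher, and 3 had an unadjusted p under 0.05. Their median log2 fold change was -0.80, against -0.04 for all tested genes, and without WT replicate 3 it was -0.25 against -0.01. In 3 of the 9 (Gzma, Gzmb and Serpinb9) all KO libraries lay below all WT libraries, where 11.5% of tested genes did so. In 0 of the 9 did all KO libraries lie above, where 10.4% of tested genes did so. Scaled to 13 pan-T cell genes instead, Gzmb alone was again called among these genes, while the calls over all genes split into 29 higher and 146 lower (96 and 125 with TMM) and the median of all genes moved to -0.31.

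**Figure D1:**
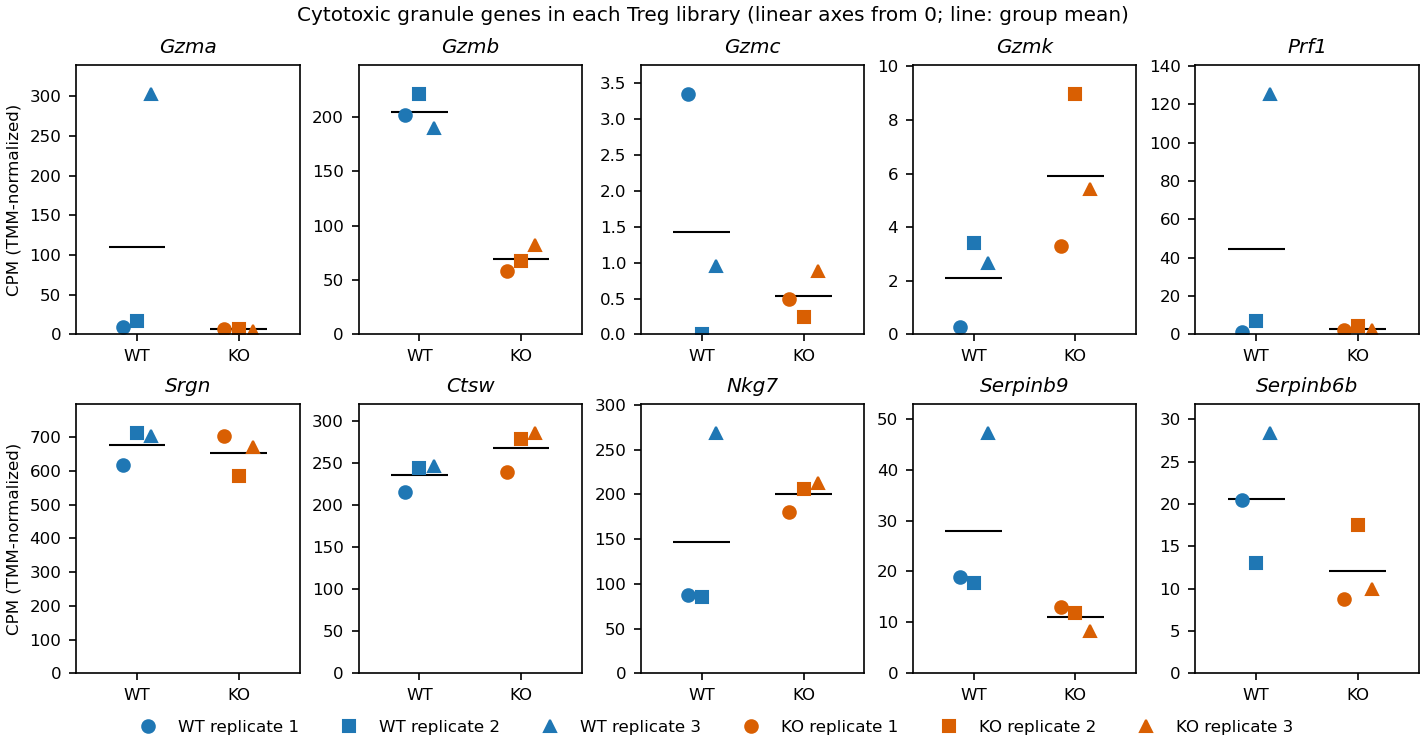
TMM-normalized CPM (y axes, linear from 0, a different range in each panel) of the 10 granule genes in the 3 WT libraries (blue) and 3 KO libraries (orange), with the marker shape giving the replicate number and the line the group mean. Gzmb sits at 189 to 221 CPM in WT and at 58.0 to 82.0 CPM in KO, while Gzma and Prf1 are high in WT replicate 3 and low in the other 5 libraries.

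Gzmb encodes granzyme B, which cleaves caspases and other proteins after aspartate. The gene (NM_013542; chromosome 14, mm10, 56258838 to 56262260, minus strand, protein coding) was counted over its whole transcript of 1416 bases. It had 1511, 323 and 2002 reads in WT replicates 1 to 3, which is 202.1, 221.0 and 189.4 CPM. In KO replicates 1 to 3 it had 596, 843 and 1571 reads, which is 58.0, 67.5 and 82.0 CPM. Every KO library was below every WT library, and the gap between the groups was wider than the spread within either. The means were 204 ± 15.9 CPM in WT and 69.2 ± 12.1 CPM in KO (SD, n = 3 each), with a log2 fold change of -1.56, a standard error of 0.16 and a 95% interval of -1.92 to -1.19 (edgeR adjusted p = 0.00765). WT replicate 3, where the NK cell markers were highest, had the lowest Gzmb level of the WT group, 0.895 of the mean of the others. Its Treg transcripts were also lower. Foxp3 was at 200.1 CPM there, against a mean of 455.2 CPM in WT replicates 1 and 2. Treg cell markers took 0.13% of its reads, against 0.27% and 0.286% in WT replicates 1 and 2. The part of other cells in its Gzmb level was not tested. Without WT replicate 3 the log2 fold change was -1.60 (edgeR adjusted p = 0.00277), where 2.13% of genes were called lower. The call was lost without KO replicate 1 (log2 fold change -1.44, edgeR adjusted p = 0.0717) and with the share of lung epithelial markers as a covariate (-1.61, edgeR adjusted p = 0.0701). Those fits called only 4 and 8 genes in all, against 221 with the main settings. All 11 lung epithelial markers had negative log2 fold changes too, with a median of -1.77, and of -2.02 without WT replicate 3. With or without that library, 0 of them were called by edgeR. In bulk RNA, fewer Gzmb-expressing cells and less Gzmb RNA per cell cannot be told apart.

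Gzma encodes granzyme A, a protease that cuts after basic residues and is abundant in NK cells. The gene lies on chromosome 13 (NM_010370; 113093825 to 113100981, minus strand, protein coding). Its level was 10, 17.1 and 302.6 CPM in WT replicates 1 to 3, from 75, 25 and 3199 reads. In KO replicates 1 to 3 it was 7.40, 7.44 and 4.49 CPM, from 76, 93 and 86 reads. The groups did not overlap, yet WT replicate 3 was 22.3 times the mean of the other WT libraries. The log2 fold change was -4.14 with a 95% interval of -7.87 to -0.42 (edgeR adjusted p = 0.273). Without WT replicate 3 it was -1.03 (95% interval -2.03 to -0.03, edgeR adjusted p = 0.248), so Gzma was not called in either fit. With the share of NK cell markers as a covariate, Gzma was called at a log2 fold change of -1.24 (edgeR adjusted p = 0.0494). That fit called 285 of 12719 genes lower. The share was far higher in WT replicate 3 than elsewhere, so the fit is close to leaving that library out. Over the alternatives that gave Gzma an adjusted p, it ran from 0.0494 to 0.636.

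Prf1 encodes perforin (NM_011073; chromosome 10, 61297833 to 61304680, plus strand, protein coding). It was at 1.47, 6.84 and 125.4 CPM in WT replicates 1 to 3, from 11, 10 and 1326 reads. In KO replicates 1 to 3 it was at 2.43, 4.32 and 2.51 CPM, from 25, 54 and 48 reads. Outside WT replicate 3 the transcript was scarce and the groups overlapped. The log2 fold change of -3.90 had a 95% interval from -7.93 to 0.13 (edgeR adjusted p = 0.329), and became -0.25 (95% interval -2.07 to 1.58, edgeR adjusted p = 0.907) without WT replicate 3. The interval without that library allows a difference of several fold either way.

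The NK cell markers, like Gzma and Prf1, were highest in WT replicate 3. Among the other 5 libraries Gzma was lower in KO. There the summed share of all 14 markers was higher in KO, but that of the 12 besides Tyrobp and Fcer1g overlapped between the groups. The summed share of reads was 0.101% in WT replicate 3, 0.00460% and 0.00972% in WT replicates 1 and 2, and 0.0113% to 0.0141% in KO. Tyrobp and Fcer1g, signalling adaptors that macrophages also make, held 76.6% to 96.9% of these reads, so the share used as a covariate is mostly theirs. The other 12 markers took 0.0236% of the reads in WT replicate 3, 0.000627% and 0.00174% in WT replicates 1 and 2 and 0.000371% to 0.000932% in KO. Ncr1, which encodes the NK cell receptor NKp46, reached 39.6 CPM in WT replicate 3 and 0.157 to 2.05 CPM elsewhere, a level 30.6 times the mean of the other WT libraries. For Prf1 that ratio was 30.2. Of the 14 markers, 5 had no read in WT replicate 1, 2 had none in WT replicate 2 and 1 had none in KO replicate 3. NK cells carry neither CD4 nor Foxp3 and lie outside the labelled gate, yet their markers were read in WT replicate 3. How those transcripts came to be there was not tested. Markers of some other cell types were also highest in WT replicate 3. Cd8a was at 9.84 CPM there and at 0 to 0.8 CPM elsewhere. Cd8b1, the other CD8 T cell marker, differed less, at 28.7 CPM there and at 7.79 to 22.3 CPM elsewhere. The mast cell and basophil protease gene Mcpt8 was at 46.2 CPM there and at 0.292 to 2.05 CPM elsewhere. The part of these cell types in the Gzma and Prf1 values was not tested.

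**Figure D2:**
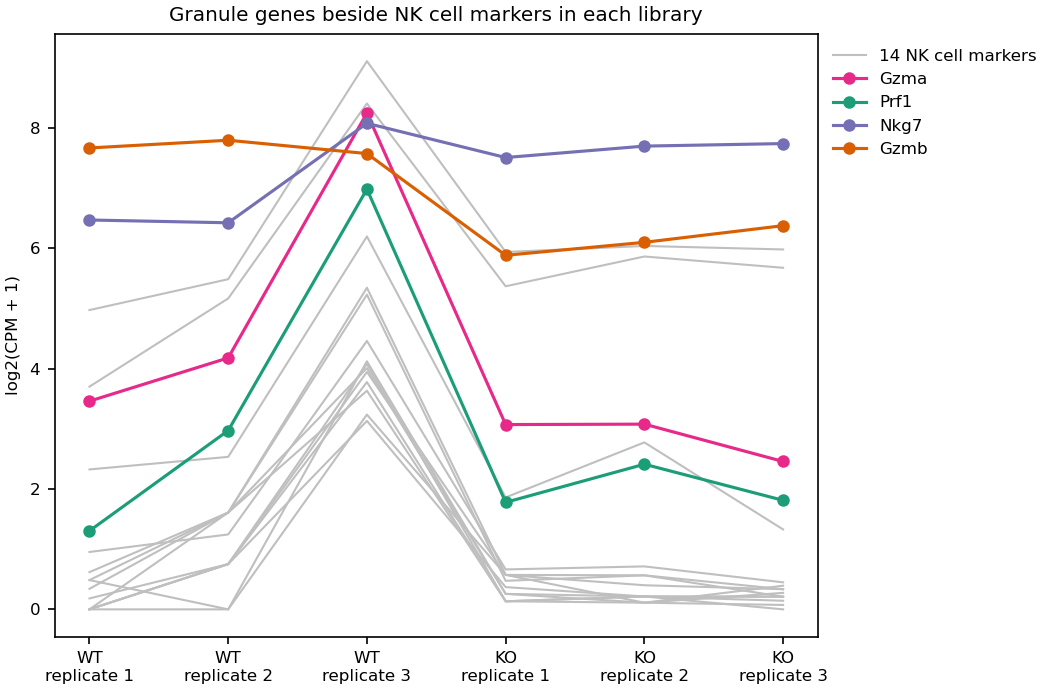
Levels on the log2(CPM + 1) scale (y axis) in each of the 6 libraries (x axis), with lines joining the values of 1 gene: 14 NK cell markers in grey and 4 granule genes in colour. All 14 markers, Gzma, Prf1 and Nkg7 peak in WT replicate 3, where Gzma reaches 303 CPM, while Gzmb is lower in the 3 KO libraries and does not peak there.

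Gzmk encodes granzyme K, a trypsin-like granzyme found in memory-type T cells. It lies 70.6 kb from Gzma on chromosome 13 (NM_008196; 113171608 to 113225908, minus strand, protein coding). Its level was 0.267, 3.42 and 2.65 CPM in WT replicates 1 to 3, from 2, 5 and 28 reads. In KO replicates 1 to 3 it was 3.31, 8.97 and 5.43 CPM, from 34, 112 and 104 reads. WT replicate 2 lay slightly above KO replicate 1, so the groups overlapped, although the other KO libraries lay above all WT libraries. The log2 fold change was 1.61 with a 95% interval of -0.33 to 3.55 (edgeR adjusted p = 0.406), and 2.26 without WT replicate 3 (edgeR adjusted p = 0.282). The annotated gene overlaps Esm1 on the opposite strand, but their annotated exons share 0 bases. Esm1 was at 1.34 to 3.42 CPM in WT and at 24.3 to 33.7 CPM in KO.

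Gzmc encodes granzyme C, a chymotrypsin-like granzyme of strongly activated killer cells, and was close to the detection limit. The gene (NM_010371; chromosome 14, 56231441 to 56234656, minus strand, protein coding) had 25, 0 and 10 reads in WT replicates 1 to 3 and 5, 3 and 17 reads in KO replicates 1 to 3. This was 3.34, 0 and 0.946 CPM in WT and 0.487, 0.240 and 0.887 CPM in KO. The highest value was that of WT replicate 1, and the 0 in WT replicate 2, which allows up to 2.05 CPM, cannot be ranked against the KO libraries. The mean difference on the log2(CPM + 1) scale was -0.43 (exact two-sided permutation test, p = 0.6, where 3 libraries against 3 allow no p below 0.1). Of the 50-base stretches in its annotated transcripts, 4.14% also occur in Gzmd, Gzme or Gzmg, so a few of its reads could belong to those genes. The other granzyme genes were near silent: Gzmd, Gzmf and Gzmn had no read in any library, Gzme and Gzmg had reads in 1 library each, and Gzmm stayed between 0.16 and 0.974 CPM.

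Srgn encodes serglycin, the proteoglycan core that packs granzymes inside granules and that many blood cells make. It was the most abundant of the 10 genes in every library. The gene (NM_011157; chromosome 10, 62493833 to 62527451, minus strand, protein coding) was at 616.6, 712.3 and 703.5 CPM in WT replicates 1 to 3 and at 702.9, 583.7 and 670.5 CPM in KO replicates 1 to 3. The groups overlapped throughout, and the log2 fold change of -0.05 had a 95% interval of -0.32 to 0.21 (edgeR adjusted p = 0.866).

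Ctsw encodes cathepsin W, a cysteine protease of T and NK cells (NM_009985; chromosome 19, 5465043 to 5468507, minus strand, protein coding). It was at 216.0, 244.3 and 246.6 CPM in WT replicates 1 to 3 and at 238.7, 278.0 and 285.7 CPM in KO replicates 1 to 3. The lowest KO library lay inside the WT range and the other KO libraries just above it. The log2 fold change was 0.18 (95% interval -0.10 to 0.47, edgeR adjusted p = 0.526) and turned to -0.09 when scaled to pan-T cell genes. Its exons share 9 bases with Fibp on the opposite strand, which was at 41.3 to 72.0 CPM.

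Nkg7 encodes a granule membrane protein needed for efficient release of granule contents (NM_024253; chromosome 7, 43437073 to 43438249, plus strand, protein coding). It was at 87.6, 84.8 and 268.8 CPM in WT replicates 1 to 3, from 655, 124 and 2841 reads. In KO replicates 1 to 3 it was at 180.9, 206.5 and 212.6 CPM, from 1858, 2580 and 4072 reads. The KO libraries stayed close together and lay between WT replicate 3 above and the other WT libraries below. With all 6 libraries the log2 fold change was 0.42 (95% interval -0.66 to 1.51, edgeR adjusted p = 0.711). Without WT replicate 3 it was 1.22 (95% interval 0.89 to 1.54, edgeR adjusted p = 0.00355), and Nkg7 was called higher in a fit where 1.87% of genes were called higher. With all 6 libraries and the NK marker share as a covariate it was 1.11 (edgeR adjusted p = 0.00455), where 256 of 12719 genes were called higher. That share was 0.101% in WT replicate 3 and 0.0046% to 0.0141% elsewhere. The fit is therefore close to leaving that library out and is not separate support. Scaled to pan-T cell genes, also with all 6 libraries, the log2 fold change of Nkg7 was 0.02 (edgeR adjusted p = 0.991), against 0.42 with TMM. That scaling was not run without WT replicate 3. Among the markers of other cells, those of macrophages and monocytes moved with Nkg7 once WT replicate 3 was left out. All 7 tested had positive log2 fold changes, with a median of 1.53, and 3 were called higher (Lyz2, Csf1r and Cd68). Their summed share of reads was 0.0375% and 0.0783% in WT replicates 1 and 2, 0.715% in WT replicate 3 and 0.259% to 0.281% in KO. Marco had 0 reads in WT replicates 1 and 2 and 1, 1 and 5 reads in KO replicates 1 to 3, too few to rank these libraries. The part of macrophages and monocytes in the Nkg7 value was not tested.

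**Figure D3:**
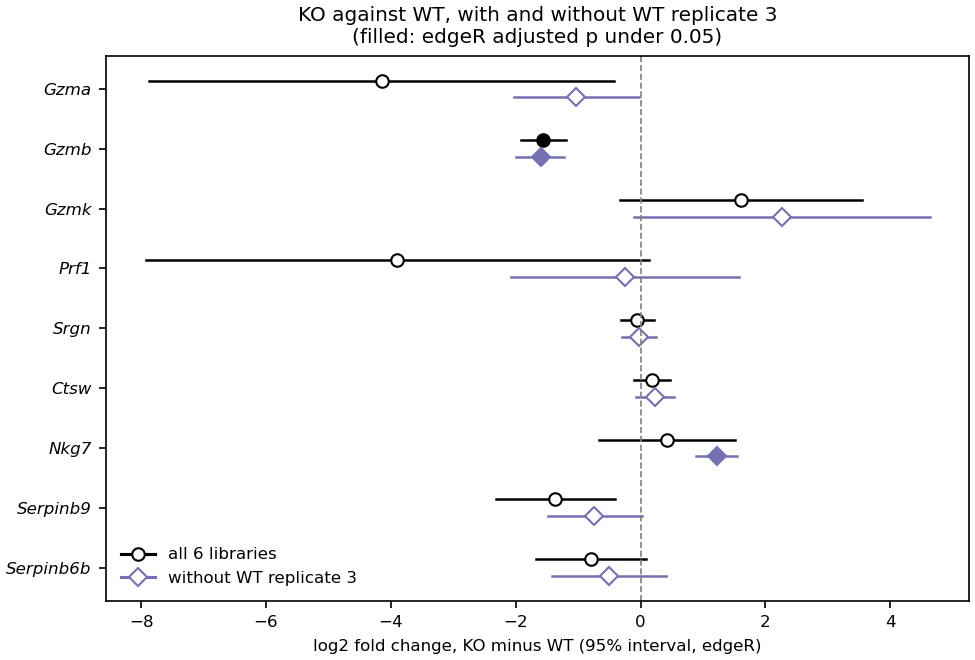
Log2 fold change, KO minus WT (x axis), with its 95% interval from edgeR for the 9 tested granule genes, with all 6 libraries (circles) and without WT replicate 3 (diamonds); filled symbols have an adjusted p under 0.05. Gzmb stays near -1.6 in both fits, Nkg7 moves from 0.42 to 1.22, and Gzma and Prf1 move toward 0.

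Serpinb9 encodes the inhibitor that traps granzyme B in the cytosol (NM_009256; chromosome 13, 33003250 to 33017957, plus strand, protein coding). It was at 19.0, 17.8 and 47.2 CPM in WT replicates 1 to 3, from 142, 26 and 499 reads. In KO replicates 1 to 3 it was at 13.0, 11.9 and 8.30 CPM, from 134, 149 and 159 reads. All KO libraries were below all WT libraries, with WT replicate 3 well above the rest. The log2 fold change was -1.37 (95% interval -2.32 to -0.41) and was not called (edgeR adjusted p = 0.157). DESeq2 called it lower (log2 fold change -1.35, DESeq2 adjusted p = 0.0389), in a fit that called 3.90% of genes lower and, of these 10, Gzmb and Serpinb9. Without WT replicate 3 edgeR gave -0.74 (95% interval -1.49 to 0.02, edgeR adjusted p = 0.269).

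Serpinb6b encodes a serpin that inhibits granzyme A and lies 24.2 kb from Serpinb9 (NM_011454; chromosome 13, 32965209 to 32979067, plus strand, protein coding). It was at 20.5, 13.0 and 28.4 CPM in WT replicates 1 to 3 and at 8.76, 17.5 and 10 CPM in KO replicates 1 to 3. KO replicate 2 lay above WT replicate 2, so the groups overlapped. The log2 fold change was -0.80 (95% interval -1.68 to 0.09, edgeR adjusted p = 0.363), and -0.50 without WT replicate 3 (edgeR adjusted p = 0.548). Of the 50-base stretches in its transcripts 2.92% are shared with other genes (Serpinb6c, Gm8436 and Serpinb6a), and for Serpinb9 0.378% are shared with Serpinb9b.

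Set side by side per transcript length, as CPM per kb, the order of the 10 genes below the top position differed between KO and WT replicates 1 and 2. Srgn led in every library, at 622 to 759 CPM per kb. In WT replicates 1 and 2 it was followed by Ctsw (175 and 198 CPM per kb), Gzmb (143 and 156) and Nkg7 (108 and 104). In all 3 KO libraries the order was Srgn, Nkg7 (222.5 to 261.5 CPM per kb), Ctsw (194 to 232) and Gzmb (41.0 to 57.9). Nkg7 thus stood above Ctsw and Gzmb in KO and below both in these WT libraries, although the KO ranges of Nkg7 and Ctsw overlapped. In WT replicate 3 Gzma came second at 345 CPM per kb, close to Nkg7 at 331, and ahead of Ctsw at 200.2 and Gzmb at 134. Nkg7, Ctsw and Gzmb were there in the same order as in KO. The remaining genes were low per length: Serpinb6b was at 4.71 to 15.3 CPM per kb, Serpinb9 at 2.44 to 13.9 and Gzmk at 0.338 to 11.3. Prf1 stayed at 0.716 to 3.33 CPM per kb outside WT replicate 3. Together the 10 genes took 0.110% to 0.166% of the reads of a library. Granzymes and perforin made up 5.89% to 7.46% of those reads in KO, 18.5% and 18.8% in WT replicates 1 and 2 and 32.4% in WT replicate 3.

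**Figure D4:**
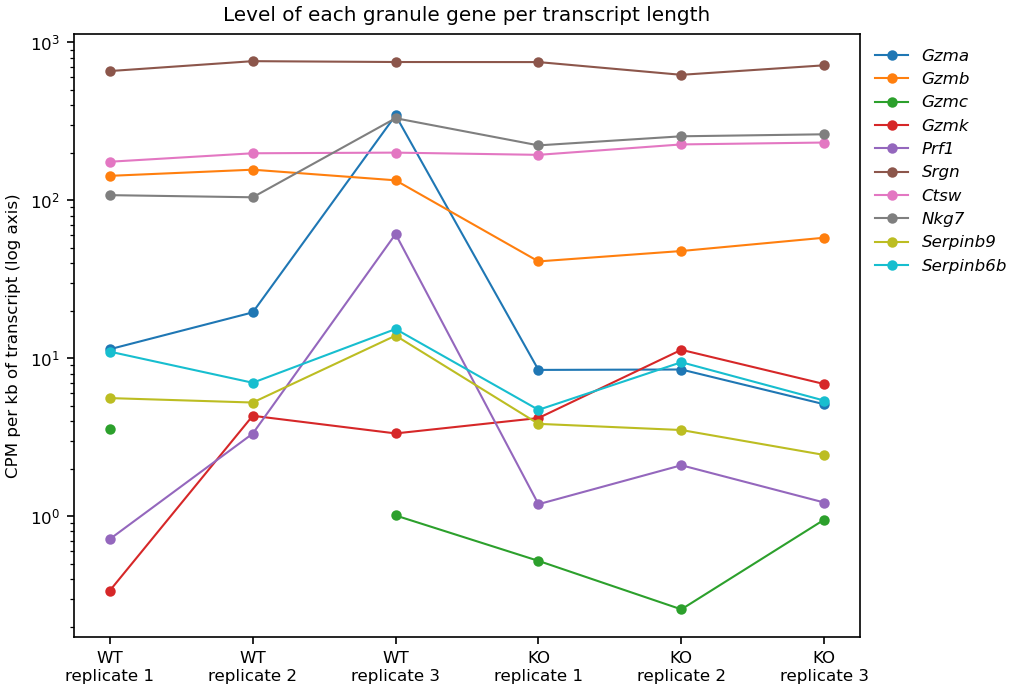
Level of each of the 10 genes as CPM per kb of transcript (y axis, log scale) in the 6 libraries (x axis), with lines joining the values of 1 gene; the Gzmc value of 0 in WT replicate 2 is not drawn. Srgn stays at 622 to 759 CPM per kb, Gzmb lies above Nkg7 in WT replicates 1 and 2 and below it in the other 4 libraries.

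Of 11 tested genes that load, move and release granules, 0 were called by edgeR in either direction with all 6 libraries, 4 had positive and 7 negative log2 fold changes, and the median was -0.05 against -0.04 for all genes. Rab27a, a GTPase that docks granules at the membrane, was at 102.7, 102.1 and 93.6 CPM in KO and 90.0, 94.4 and 98.2 CPM in WT. Unc13d, which primes granules for fusion, was at 151.5 to 189.9 CPM in KO and 167.8 to 212.9 CPM in WT. The members of smallest p were Cst7 and Stxbp2. Cst7, which encodes the granule protease inhibitor cystatin F, was at 7.36, 22.6 and 32.0 CPM in WT and at 44.2, 42.4 and 49.3 CPM in KO (log2 fold change 1.14, edgeR adjusted p = 0.276). Its groups did not overlap, and the log2 fold change was 1.82 without WT replicate 3 (edgeR adjusted p = 0.0502). Cst7 was called higher in 1 of 17 alternatives, at 1.76 with the NK marker share as a covariate (edgeR adjusted p = 0.0462). That fit called 256 of 12719 genes higher. The Cst7 value fell to 0.76 scaled to pan-T cell genes, 0.70 without WT replicate 1 and 0.51 when lung epithelial share was a covariate. In that order, the edgeR adjusted p was 0.516, 0.172 and 0.442. Stxbp2, a partner of syntaxin 11 in granule fusion, had a log2 fold change of -0.25 (edgeR adjusted p = 0.382). Without WT replicate 3, Ctsc and Lamp1 were called higher, in a fit where 1.87% of genes were called higher. Ctsc encodes the protease that activates granzymes by trimming their ends, and had a log2 fold change of 0.83 (edgeR adjusted p = 0.0368). Lamp1, a protein of lysosome and granule membranes, had 0.71 (edgeR adjusted p = 0.0360). In the same fit the macrophage genes Lyz2, Csf1r and Cd68 had 1.62, 1.40 and 1.79 (edgeR adjusted p = 0.00172, 0.0327 and 0.0236), and their part in these values was not tested.

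Of 4 death receptor ligands, the other killing route of lymphocytes, 0 were called by edgeR. All 4 had negative log2 fold changes (median -0.68, and -0.34 without WT replicate 3). Lta, which encodes lymphotoxin alpha, was at 15.9, 23.3 and 17.0 CPM in WT and at 7.40, 4.64 and 6.68 CPM in KO (log2 fold change -1.57, edgeR adjusted p = 0.0647). Its groups did not overlap, and it was called lower in 3 of 17 alternatives. These were DESeq2 (adjusted p = 0.00223), limma-voom (adjusted p = 0.0366) and edgeR with the NK marker share as a covariate (adjusted p = 0.0487). In that order, they called 496, 176 and 285 of 12719 genes lower. Lta was not called in any fit that left out 1 library (edgeR adjusted p = 0.054 to 0.273). Nor was it called with the replicate block (edgeR adjusted p = 0.182) or the lung epithelial share as a covariate (edgeR adjusted p = 0.157). Tnf had -0.56 (edgeR adjusted p = 0.471), and -0.25 without WT replicate 3. Of 13 other serpins of the same clade, 3 passed the filter and 0 were called by edgeR. Serpinb6a, a family relative of Serpinb6b, was at 28.7 to 29.3 CPM in WT replicates 1 and 2, 26.4 CPM in WT replicate 3 and 39.0 to 43.5 CPM in KO (log2 fold change 0.55, edgeR adjusted p = 0.160). Serpinb1a, an inhibitor of neutrophil-type proteases, was at 54.2 to 66.5 CPM in WT and 19.8 to 40.6 CPM in KO (log2 fold change -0.91, edgeR adjusted p = 0.143), and DESeq2 called it lower (-0.90, DESeq2 adjusted p = 0.0379).

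Among 12 tested transcription factors of cytotoxic lymphocytes, Id2 was called higher and 0 were called lower. Id2, an inhibitor of E proteins that supports effector lymphocytes, was at 272.8, 356.5 and 369.4 CPM in the WT libraries, with a mean of 333 ± 52.4 CPM (SD, n = 3). It was at 704.5, 623 and 795.3 CPM in the KO libraries, with a mean of 708 ± 86.2 CPM (SD, n = 3). Every KO library lay above every WT library, and the log2 fold change was 1.09 with a standard error of 0.15 (edgeR adjusted p = 0.0181). The call was lost without WT replicate 1, WT replicate 2, KO replicate 1 or KO replicate 3 (edgeR adjusted p = 0.0548, 0.0590, 0.116 and 0.126), when scaled to pan-T cell genes (edgeR adjusted p = 0.155), and with the share of lung epithelial markers as a covariate (log2 fold change 0.89, edgeR adjusted p = 0.0876). In that order, these fits called 33, 22, 4, 7, 175 and 8 genes in all, against 221 in the main fit. Tbx21, which encodes T-bet and drives granzyme and perforin genes in killer cells, was at 14.8, 22.6 and 67.4 CPM in WT replicates 1 to 3 and at 13.8 to 22.3 CPM in KO (log2 fold change -0.99, edgeR adjusted p = 0.426). Without WT replicate 3 its log2 fold change was 0.00 (edgeR adjusted p = 0.997). Eomes, its relative in NK cells, was at 12.7 CPM in WT replicate 3 and at 0 to 0.684 CPM elsewhere. Runx3 was at 99.4 to 115.5 CPM in WT and 92.1 to 112.3 CPM in KO, and Prdm1, which encodes Blimp-1, at 77.6 to 108.6 CPM in WT and 118.7 to 142.0 CPM in KO. Without WT replicate 3, Id2, Zeb2 and Hopx were called higher, with log2 fold changes of 1.18, 2.29 and 0.90 (edgeR adjusted p = 0.00631, 0.0112 and 0.0440). In that fit 1.87% of all genes were called higher. Zeb2 was at 98.7 CPM in WT replicate 3, above all other libraries, and is also made by macrophages. Of their 7 tested markers 3 were called higher in that fit, and their part in the Zeb2 value was not tested. Stat5a and Stat5b, which carry interleukin-2 signals, had log2 fold changes of -0.26 and -0.11 (edgeR adjusted p = 0.503 and 0.829).

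**Figure D5:**
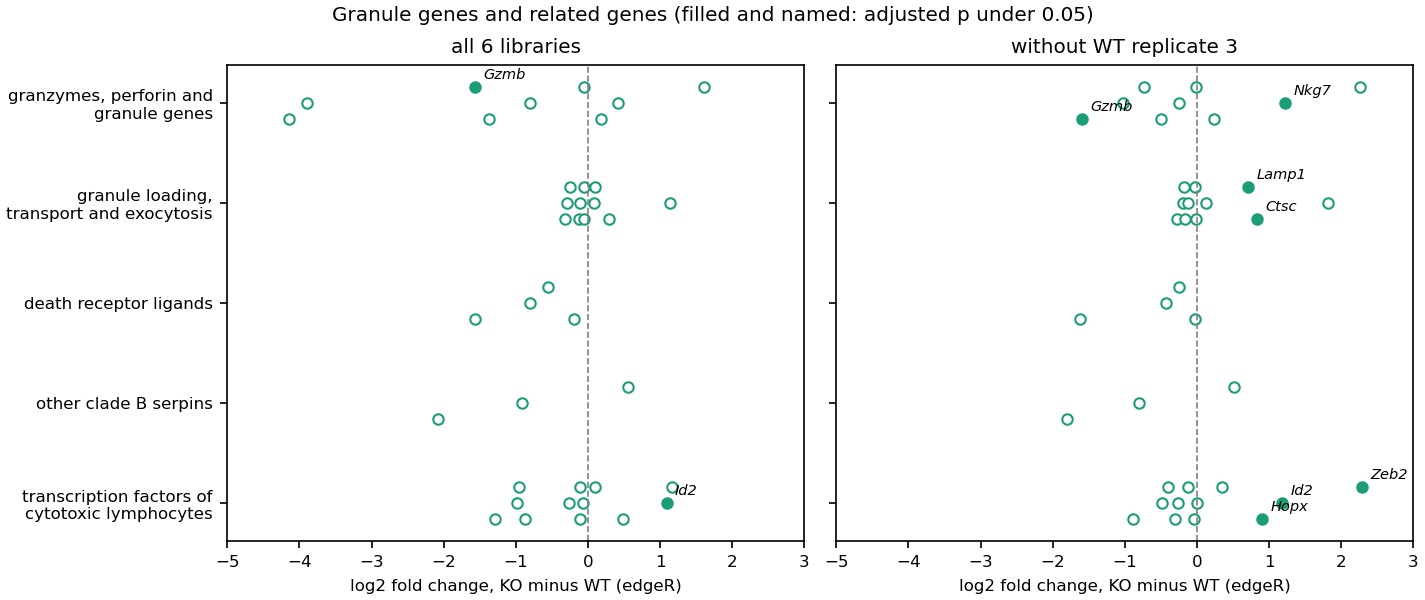
Log2 fold change, KO minus WT (x axes), of each tested gene in 5 lists (rows), with all 6 libraries (left) and without WT replicate 3 (right); filled and named points have an edgeR adjusted p under 0.05, and the vertical position within a row carries no meaning. Gzmb and Id2 are called on both sides, and Nkg7, Lamp1, Ctsc, Zeb2 and Hopx are called only on the right, a difference that was not itself tested.

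The genes whose levels followed each granule gene most closely were sought among 10338 genes with a mean of at least 5 CPM, by Pearson's r of log2 CPM (prior count 2) over the 6 libraries, as a description. For Gzmb they were Pcdhga10 (r = 0.995), Pcdhgb2 and Pcdhga5 (r = 0.993 each), gamma-protocadherin genes that share exons and therefore reads, at 8.02 to 10.3 CPM in WT and 2.82 to 4.33 CPM in KO. For Gzma they were Snap23, Klrk1 (r = 0.997 each) and Psca (r = 0.992). Klrk1 encodes the NK receptor NKG2D and was at 56.1 CPM in WT replicate 3 and 1.25 to 3.42 CPM elsewhere. Snap23 differed less, at 43.9 CPM there and 19.7 to 24.6 CPM elsewhere. For Prf1 they were the chemokine gene Ccl4 (r = 0.993), Fgd2 (r = 0.989) and Wdr3 (r = 0.987). Ccl4 was at 418.5 CPM in WT replicate 3 and 11.1 to 24.6 CPM elsewhere, and Wdr3 at 47.5 CPM there and 35.8 to 40.4 CPM elsewhere. All these matches of Gzma and Prf1 were highest in WT replicate 3, so 1 library of 6 weighs heavily in their r. For Nkg7 they were Hexa (r = 0.998), which encodes a lysosomal enzyme, Egr1 (r = 0.996) and Sgpl1 (r = 0.994). Hexa was at 48.5, 51.3 and 154 CPM in WT replicates 1 to 3 and at 105.4 to 118.5 CPM in KO, and like Nkg7 it was highest in WT replicate 3 and lowest in the other WT libraries.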

How the data were processed

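RNA-seq was done on sorted Treg cells, 3 WT and 3 KO libraries, grouped by title and genotype tag. Per the file headers, the deposited table holds raw counts for each RefSeq transcript and its length. The tools named in the submitters' processing notes are bcl2fastq, TopHat2 2.2.1 and Bowtie2 2.2.6, with the mm10 build. No source used here gives the counting program, the strand setting or the handling of multiply mapped reads, so reads of overlapping or near-identical genes may be shared. Unused per-sample columns numbered 0, and 0 rows lacked a gene name.

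From the 31682 rows, the row of highest total was kept per symbol. Low genes were removed by filterByExpr (count of at least 10, total of at least 15), and libraries were scaled by the trimmed mean of M values, TMM. KO was compared with WT by the quasi-likelihood F-test of edgeR 4.0.16 (robust) in R 4.3.3, without a block, with Benjamini-Hochberg adjustment over all 12719 genes. Standard errors are the absolute log2 fold change over the square root of F. Alternatives used DESeq2 1.42.0, limma-voom (limma 3.58.1), other scaling, filters and covariates, and left out each library in turn. Only the main edgeR fit was run on simulated data, with counts drawn from the real means and dispersions and no library set apart. Between any pair of libraries chi-square was at least 13.5 per degree of freedom, so no pair agreed within sampling noise. Gene positions are from GENCODE M21 (GRCm38, the same assembly as mm10).

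The 10 genes and all lists were chosen with earlier results of these data known. Every granule gene is named, with Crlf2 and Foxp3. From each related list, called genes (up to 4 of smallest p) or else 2 of smallest p are named, and from marker lists up to 3. Rab27a, Unc13d, Tbx21, Eomes, Runx3, Prdm1, Stat5a, Stat5b, Ctsc, Lamp1, Zeb2, Hopx, Fibp, Esm1 and the marker genes Cd8a, Cd8b1, Mcpt8 and Marco were named after their values were seen. Where a setting left 1 group with 2 libraries, the spread was pooled over both groups.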

Additional observations from a re-analysis of the deposited data

How the results depend on the processing

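Among the 10 granule genes, edgeR called 1 lower (Gzmb) and 0 higher with the main settings. The number called lower was 2 with DESeq2 (Gzmb and Serpinb9; Gzma had no adjusted p there), 2 with the NK marker share as a covariate (Gzmb and Gzma) and 0 when lung epithelial share was a covariate. Over the fits that left out 1 library it was 0 (without KO replicate 1) to 1. The number called higher was 1 with the NK marker share as a covariate and 0 to 1 when 1 library was left out, the 1 being Nkg7 without WT replicate 3. Of the 152 values with an adjusted p that the alternatives gave for the 9 tested granule genes, 143 kept their direction and their side of the threshold. All of these genes but Gzmb were uncalled in the main fit, so this tally says little about how stable the fold changes were. It counts as kept the moves without WT replicate 3 from -3.90 to -0.25 for Prf1 and from -4.14 to -1.03 for Gzma. Signs changed for Srgn (0.0264 without KO replicate 2 and 0.0003 without WT replicate 2, in a leave-one-out range of -0.1110 to 0.0264), for Ctsw (-0.0870 when scaled to pan-T cell genes) and for Gzmc (0.1195 without WT replicate 1; leaving out libraries was chosen for Gzmc after the data were seen, with a range of -0.9399 to 0.1195). Gzmb was called in 15 of 17 alternatives, at log2 fold changes of -1.81 to -1.44, and Id2 in 11 of 17, at 0.80 to 1.18. The cause of these changes was not tested.

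Over all genes 221 were called in the main fit, 863 with DESeq2, 541 and 8 with the NK and lung covariates, 134 with all rows of a symbol summed, 123 with the replicate block, and 4 to 518 when 1 library was left out. Same-numbered libraries did not deviate together (r = 0.084, -0.147 and -0.045), so the numbers were not taken as pairs. With the replicate block Gzmb had a log2 fold change of -1.57 (edgeR adjusted p = 0.0197), and 1 granule gene was called lower and 0 higher. Depth limits Gzmc, Gzmk and Prf1 most, with 10 or fewer reads each in WT replicate 2.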
